A study of Mus musculus with 2 samples.

Results

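The hematopoietic niche factors described here are 6 genes through which the stroma of the bone marrow acts on blood cells, namely Cxcl12, Kitl, Il7, Angpt1, Vcam1 and Il15. They were chosen by symbol and not by a cut on their measured values, but with earlier results of these data known. All 6 were among the 27998 genes in the count matrices. Each of the 2 libraries held tdTomato+CD31-CD45-Ter119- cells sorted from the metaphysis of the femur, with the epiphysis removed, of Gli1-CreERT2; Ai9 mice of mixed background at 1 month of age. Both groups received tamoxifen on 3 days, which switches on tdTomato in cells that use the Gli1 promoter and marks their progeny, and then 3 daily injections of vehicle or of teriparatide, a fragment of parathyroid hormone, at 400 ng per g of body weight. The label limits the stroma to cells that expressed Gli1 and their descendants, and both libraries carried cells of both sexes. The methods give several mice of both sexes in each group, and do not say how they were pooled into a library. With 1 library per condition no test between conditions was possible, and a value called with vehicle or with teriparatide is that of 1 library. The 95% intervals below cover counting error only. Those of levels, of ratios and of shares of molecules count captured molecules and leave out the spread between cells. Those of shares of cells count cells. No interval covers the spread between mice.

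Blood stem and progenitor cells reside in marrow beside perivascular reticular cells, which secrete or display the factors that hold them there and keep them alive. Cxcl12 is the chemokine that retains stem and progenitor cells in marrow through its receptor Cxcr4, and Kitl is stem cell factor, the ligand of Kit. Il7 is required by early B lymphoid cells, Il15 by natural killer cells, Angpt1 is the ligand of the endothelial receptor Tek, and Vcam1 is an adhesion molecule bound by the integrin of Itga4 and Itgb1. Reticular cells that carry Lepr and Adipoq are also called marrow adipogenic lineage precursors (MALP), and they are a textbook source of Cxcl12 and Kitl.

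The vehicle library held 1286 barcodes and the teriparatide library 2142, with medians of 3622 and 6218 unique molecular identifiers (UMIs, 1 for each captured mRNA molecule). Of these, 549 and 1217 cells passed limits on detected genes and on mitochondrial UMIs, which 55.8% and 40.2% of the barcodes exceeded. Clusters were named from markers that included none of the 6 genes, and the 6 genes were also kept out of the genes used for clustering. The main named mesenchymal classes were MALP-like (125 vehicle and 81 teriparatide cells), preosteoblast-like or preOB-like (58 and 52), osteoblast-like or OB-like (113 and 131) and chondrocyte-like osteoprogenitor-like or COP-like (66 and 265). A small hypertrophic-like class (7 and 21) and an unnamed cluster (55 and 56) were also counted among the mesenchymal cells, 424 with vehicle and 606 with teriparatide. All 6 MALP markers, among them Lepr and Adipoq, were detected in the MALP-like cells of both libraries. Their summed level was 8845 counts per 1000000 UMIs (CPM) with vehicle and 4492 CPM with teriparatide. Of the 6 markers, Adipoq (3059 and 1072 CPM), Lpl (3778 and 1725 CPM), Lepr (1154 and 849.8 CPM) and Cebpa (345 and 299 CPM) were lower with teriparatide, and Pdgfrb (430.1 and 449.5 CPM) and Pparg (77.6 and 96.0 CPM) were higher. Despite the sort against blood cells, 124 vehicle and 607 teriparatide cells lay in clusters of blood cells. Cells were called male or female from Y-linked genes and Xist, and of the mesenchymal cells with a call 52.6% were male with vehicle and 90.0% with teriparatide. Only 2 barcodes occurred in both libraries.

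For Cxcl12 the window before the transcription start is shown, because a promoter entry was at hand for only 2 of the 6 genes (Cxcl12 and Kitl) and Cxcl12 was the most abundant. Cxcl12 (ENSMUSG00000061353) lies on chromosome 6 from 117168535 to 117181367 on the plus strand of GRCm38. The 250 bases that precede its RefSeq start (GRCm38.p6, chr6:117168285-117168534, plus strand) read as follows, with the half-site TGACG of the cyclic AMP response element, here on the minus strand, in capitals.

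Cxcl12: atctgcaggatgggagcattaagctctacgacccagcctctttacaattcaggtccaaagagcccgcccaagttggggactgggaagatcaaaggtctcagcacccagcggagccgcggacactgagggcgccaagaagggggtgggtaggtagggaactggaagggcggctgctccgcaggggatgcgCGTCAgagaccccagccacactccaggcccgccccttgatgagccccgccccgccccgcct

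The half-site starts 61 bases before the transcription start and was the only match. It occurred on either strand in 17.8% of 32851 mouse promoter windows of the same 250 bases. The cores CCCNNGGG of EBF factors (11.8% of windows), GTAAACA of forkhead factors (3.17%) and GGGNNTTCC of NF-kB (4.98%) were not found in it, and the window of Kitl held none of the 4 motifs. A match of letters is a description and not a site of binding, and the window of Cxcl12 was rich in G and C, at 64.4% against a median of 52.4%.

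Within the sorted stroma, all 6 genes were highest in the MALP-like cells of both libraries among the named mesenchymal classes. The authors had already listed Cxcl12 and Vcam1 among the genes of their MALP cluster in these same libraries. For Cxcl12 and Vcam1 the high level in this class was thus known beforehand. Cxcl12 stood at 25544 CPM (25300 to 25790) in the MALP-like cells of the vehicle library and at 22413 CPM (22141 to 22688) in those of the teriparatide library. Vcam1 (ENSMUSG00000027962, chromosome 3 from 116109949 to 116129688) followed with 1646 CPM (1584 to 1709) with vehicle and 1175 CPM (1113 to 1239) with teriparatide. Kitl (ENSMUSG00000019966, chromosome 10 from 100015630 to 100100416) came to 1289 CPM with vehicle, in an interval of 1235 to 1345, and to 1311 CPM with teriparatide, in one of 1245 to 1378. Angpt1 (ENSMUSG00000022309, chromosome 15 from 42424723 to 42676977) and Il7 (ENSMUSG00000040329, chromosome 3 from 7569994 to 7613760) were several fold lower. Angpt1 had 274 CPM (249.5 to 301) and 281 CPM (251 to 313), and Il7 had 243 CPM (220 to 268) and 154 CPM (132 to 178). Il15 (ENSMUSG00000031712, chromosome 8 from 82331632 to 82403222) was the lowest, at 51.3 CPM (40.9 to 63.5) and 66.6 CPM (52.5 to 83.2). All positions are in GRCm38, with Kitl on the plus strand and Vcam1, Angpt1, Il7 and Il15 on the minus strand. A UMI stands for 1 molecule caught at its 3′ end, so these levels do not scale with transcript length. The order of the genes was the same in both libraries except that Vcam1 stood above Kitl with vehicle and below it with teriparatide. With vehicle the intervals of Angpt1 and Il7 overlapped, so that these neighbours could not be ordered by counting error alone.

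**Figure D1:**
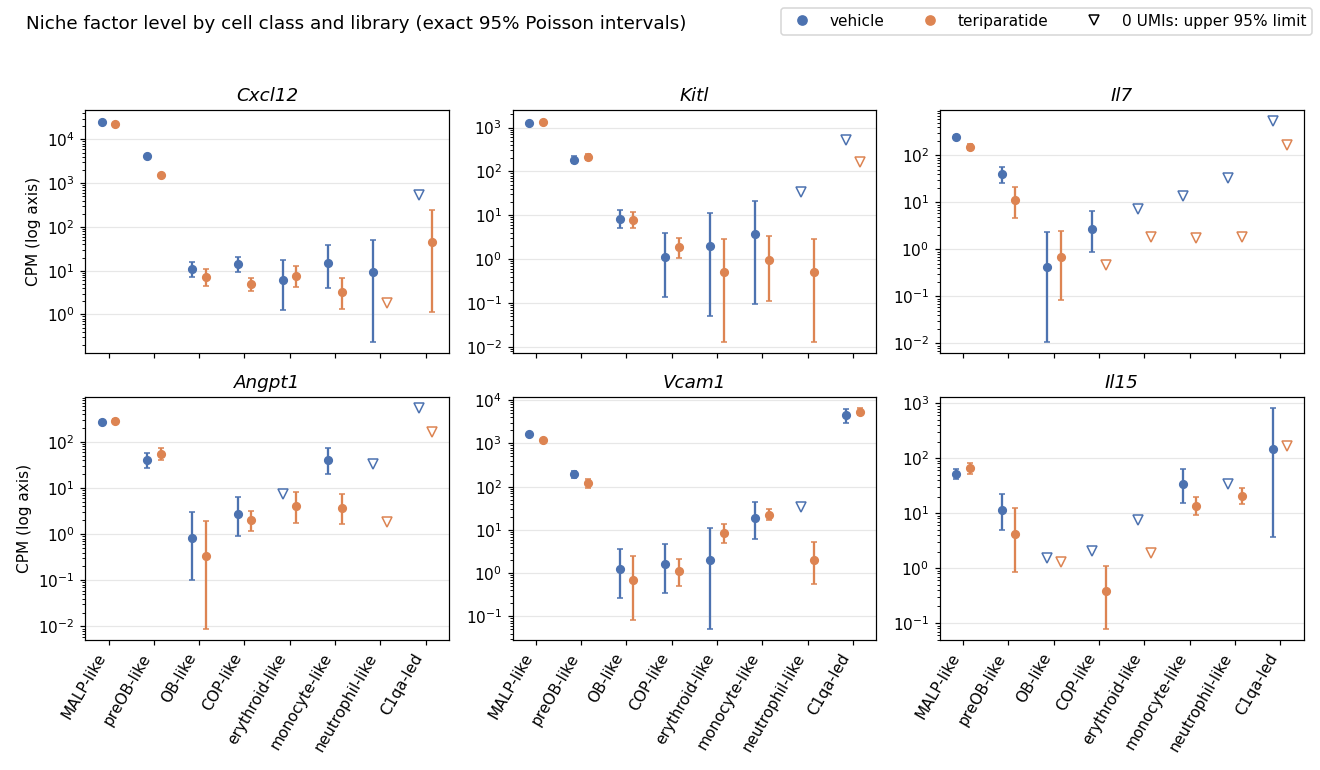
Level of each niche factor by cell class, in CPM on a log axis, for the vehicle (blue) and teriparatide (orange) libraries. Points are UMIs summed over the cells of a class with exact 95% Poisson intervals, and open triangles mark the upper limit where no UMI was seen. All 6 genes were high in the MALP-like cells and lower in the preOB-like cells, and Vcam1 was also high in the C1qa-led blood cluster.

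Among the named mesenchymal classes, the level of each gene in preOB-like cells came second, well below that in MALP-like cells. Cxcl12 in preOB-like cells had 4174 CPM (4024 to 4328) with vehicle and 1540 CPM (1451 to 1634) with teriparatide. Kitl had 184 and 215 CPM, Vcam1 194 and 119 CPM, Angpt1 40.0 and 55.5 CPM, Il7 40.0 and 11.1 CPM and Il15 11.4 and 4.16 CPM. In the bone-forming and cartilage-like classes the factors were nearly absent. Cxcl12 was at 10.9 and 7.24 CPM in OB-like and at 14.4 and 4.88 CPM in COP-like cells, against 5.99 and 7.63 CPM in the erythroid-like cells, which should not express it. The latter value came from 15 UMIs in 5 of 166 cells, of which 1 stood at 1180 CPM. Neutrophil-like teriparatide cells had 0 UMIs (upper limit 1.86 CPM), below the intervals of OB-like (4.48 to 11.1) and COP-like cells (3.47 to 6.67). Monocyte-like teriparatide cells had 3.29 CPM (1.32 to 6.77), which overlapped both. Kitl reached 8.42 CPM with vehicle and 7.93 CPM with teriparatide in OB-like cells, on 20 and 23 UMIs, against 1 UMI in the erythroid-like cells of each library. Its interval in OB-like cells overlapped that in erythroid-like cells with vehicle and not with teriparatide, where they ran from 5.03 to 11.9 CPM and from 0.0129 to 2.83 CPM. Il15 had 0 UMIs in the OB-like cells of both libraries, with upper 95% limits of 1.55 CPM with vehicle and 1.27 CPM with teriparatide.

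Set against the preOB-like, OB-like and COP-like cells together, the MALP-like cells held at least 10-fold more of 6 of the 6 genes in each library. Over all genes with at least 50 UMIs, 2.75% with vehicle and 3.3% with teriparatide were that much higher. Cxcl12 was 41.9-fold higher with vehicle (log2 ratio 5.39, 5.34 to 5.44) and 222-fold higher with teriparatide (7.80, 7.71 to 7.88). The other genes were between 31.3-fold (Il15) and 56.6-fold (Vcam1) higher with vehicle and between 57.3-fold (Angpt1) and 179-fold (Il7) higher with teriparatide. These ratios depend on how many cells of each class the library caught, since the teriparatide library held 265 COP-like cells and the vehicle library 66. Against the preOB-like cells alone the ratios were smaller, from 4.50-fold (Il15) to 8.48-fold (Vcam1) with vehicle and from 5.07-fold (Angpt1) to 16.0-fold (Il15) with teriparatide.

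Nearly every MALP-like cell held several of these factors. A UMI of Cxcl12 was found in 125 of 125 vehicle and 81 of 81 teriparatide cells, and Vcam1 likewise. Kitl was found in 124 of 125 and 81 of 81 cells, Angpt1 in 89.6% and 90.1%, Il7 in 84.0% and 66.7% and Il15 in 40.0% and 45.7%. The erythroid-like cells, taken as the background from free RNA, held a UMI of Cxcl12 in 3.92% and 3.01% of cells and of Il7 and Il15 in 0%, with medians of 9189 and 10462 UMIs per cell against 12721 and 14099 in the MALP-like cells. With every cell thinned to 3459 UMIs, which leaves 123 and 80 MALP-like cells, Il7 was found in 64 vehicle cells (42.8% to 61.1%) and 28 teriparatide cells (24.7% to 46.5%). Angpt1 at that depth was found in 56.1% (46.9 to 65.0) and 63.7% (52.2 to 74.2) and Il15 in 11.4% (6.36 to 18.4) and 23.8% (14.9 to 34.6). The median thinned MALP-like cell held 4 of the 6 genes in both libraries, the median thinned preOB-like cell 2 with vehicle and 1 with teriparatide, and the median erythroid-like cell 0.

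The factors varied among single MALP-like cells to different degrees. Cxcl12 ran from 250.5 to 43510 CPM per cell with vehicle, with a median of 25379 and quartiles of 20738 and 30134, and from 2837 to 38215 with teriparatide, with a median of 21927 and quartiles of 16122 and 26614. The quartiles of Cxcl12 thus lay close to its median in both libraries. Il7 ran from 0 to 769 CPM per cell with a median of 195 with vehicle and from 0 to 811 with a median of 102 with teriparatide. The cells of the libraries overlapped for each of the 6 genes. Across the MALP-like cells of a library, the Spearman correlations between the 6 factors ran from -0.11 (Kitl and Il7) to 0.30 (Kitl and Vcam1) with vehicle and from -0.11 (Kitl and Il7) to 0.40 (Cxcl12 and Vcam1) with teriparatide. Cxcl12 and Kitl stood at 0.18 over 125 vehicle cells and 0.14 over 81 teriparatide cells. Cxcl12 ran with Adipoq at 0.43 and 0.46. These cells share a library and counts of the rarer genes are sparse, so the values are given as a description.

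**Figure D2:**
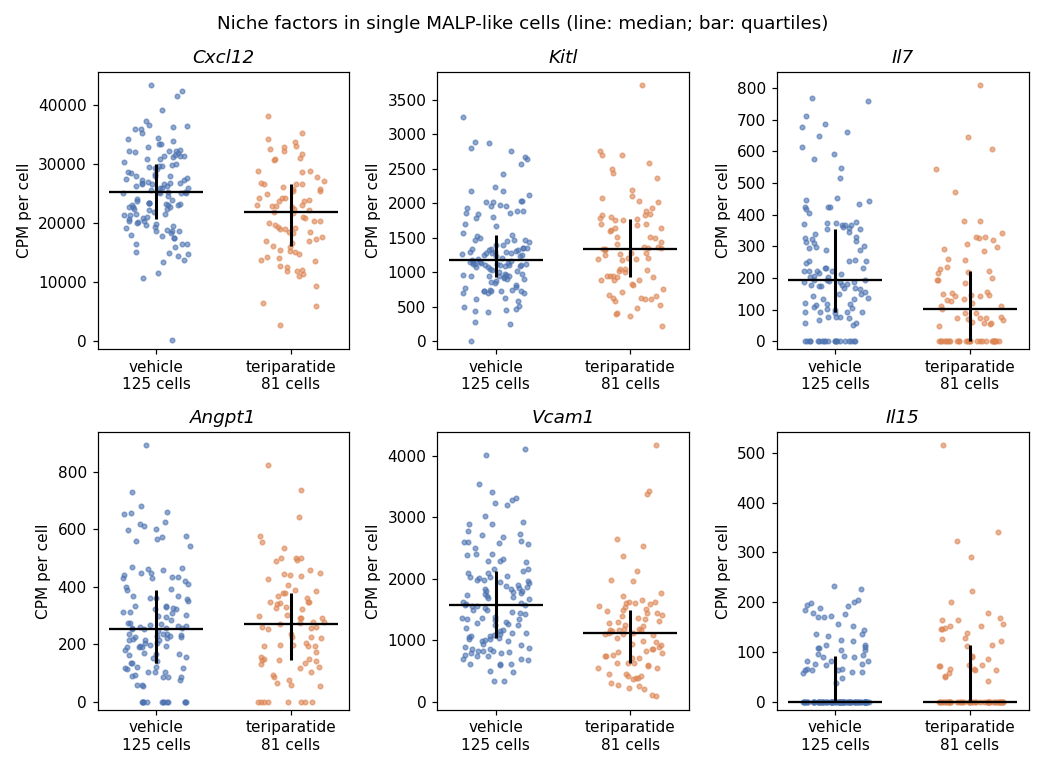
Level of each niche factor in single MALP-like cells, in CPM per cell, for 125 vehicle (blue) and 81 teriparatide (orange) cells. Horizontal lines are medians and vertical bars span the quartiles. The cells of the libraries overlapped for every gene, and the median of Il7 was 195 with vehicle and 102 with teriparatide.

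The study compared teriparatide with vehicle to learn how Gli1-labelled cells respond. In the MALP-like cells, Il7 was lower with teriparatide and was the only one of the 6 genes past 1.5-fold. Il7 went from 398 UMIs (243 CPM) to 178 UMIs (154 CPM), a log2 ratio of -0.66 (-0.92 to -0.40), which is 1.58-fold lower. Il7 fell short of 1.5-fold, and the call was lost, with median ratio scaling (-0.58), with cells thinned to one depth (-0.56) and with single cells assigned by their own marker scores (-0.42). Vcam1 went from 2694 to 1359 UMIs and was 1.40-fold lower (-0.49, -0.58 to -0.39). Cxcl12 differed least among the 3 genes whose interval lay below 0, at 1.14-fold lower (-0.19, -0.21 to -0.17). Kitl and Angpt1 stood at nearly the same level in both libraries, with ratios of 0.02 (-0.07 to 0.12) and 0.03 (-0.18 to 0.24). Il15, on 84 and 77 UMIs, had a ratio of 0.38 (-0.09 to 0.84). By the rule of 1.5-fold and an interval that leaves out 0, 1 of the 6 genes was lower and 0 higher, while 8.03% of 6890 genes with at least 50 UMIs in these cells were lower and 6.97% higher. The median ratio of the 6 genes was -0.08, equal to the median of -0.08 over all these genes.

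The libraries differed in the sexes of their cells, so each ratio was also taken within a sex. In male MALP-like cells (51 vehicle and 63 teriparatide) Il7 had 284 and 143 CPM, a ratio of -0.99 (-1.31 to -0.67). Vcam1 in male cells had a ratio of -0.44 (-0.56 to -0.32), Cxcl12 of -0.12 (-0.15 to -0.09), Kitl of 0.22 (0.09 to 0.34), Angpt1 of 0.23 (-0.04 to 0.50) and Il15 of -0.18 (-0.75 to 0.40). Female MALP-like cells numbered 66 with vehicle and only 7 with teriparatide. In these, Il7 went the other way, at 194 and 360 CPM (0.89, 0.27 to 1.47), the latter on 29 UMIs of which 1 cell held 11. Cxcl12 in female cells had a ratio of -0.68 (-0.76 to -0.60), Kitl of -0.51 (-0.85 to -0.18), Angpt1 of -1.39 (-2.54 to -0.44), Vcam1 of -0.31 (-0.61 to -0.02) and Il15 of 1.76 (0.63 to 2.79). In the 7 female teriparatide cells, Il15 had 11 UMIs, 7 of them in 1 cell, and Angpt1 had 9 UMIs in 4 cells. Single cells held 40 of the 106 Vcam1 UMIs, 24 of the 81 of Kitl and 303 of the 1310 of Cxcl12, a concentration that the intervals leave out. Vcam1 and Cxcl12 were thus lower in both sexes, while Il7, Kitl, Angpt1 and Il15 took opposite signs, of which the male intervals of Angpt1 and Il15 held 0.

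**Figure D3:**
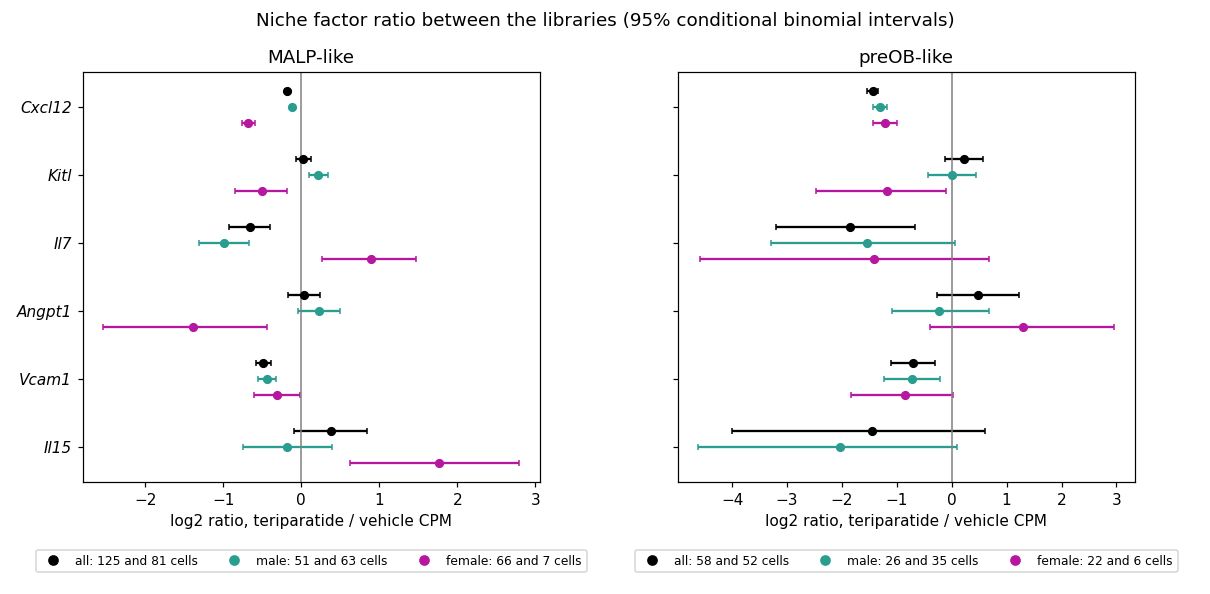
Ratio (log2) of the CPM of each niche factor between teriparatide and vehicle in the MALP-like (left) and preOB-like (right) cells, for all, male and female cells, with 95% conditional binomial intervals. A gene with no UMI in one library and sex has no point. In MALP-like cells Vcam1 and Cxcl12 lay below 0 in both sexes, and Il7 lay below 0 in male cells and above it in the 7 female cells.

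The sexes also differed among the vehicle cells, where both were well represented. Il7 was higher in male than in female MALP-like cells, at 284 against 194 CPM (log2 ratio of male to female 0.55, 0.25 to 0.86), as was Il15, at 67.6 against 40.2 CPM (0.75, 0.08 to 1.43). Kitl was lower in male cells, at 1173 against 1427 CPM (-0.28, -0.41 to -0.15). Vcam1 stood at 1644 in male and 1628 CPM in female cells (0.01, -0.10 to 0.13). Lepr, a marker of the class, was lower in male cells, at 885 against 1425 CPM (-0.69, -0.83 to -0.55). Against the 7 female teriparatide cells the ratios of male to female took the other sign, at -1.33 (-1.92 to -0.70) for Il7, -1.19 (-2.14 to -0.11) for Il15 and 0.44 (0.12 to 0.78) for Kitl. The methods give more than 1 mouse of each sex in each group, but cells were not assigned to mice, so that sex and mouse cannot be told apart here.

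At a finer clustering the MALP-like cells separated into cells led by Cxcl9, Iigp1 and Aldh1a2 (60 vehicle and 53 teriparatide cells) and cells led by Trf, Lpl and Adipoq (65 and 28). Il7 was lower with teriparatide in both, at 286 and 174 CPM in the first (-0.72, -1.02 to -0.41) and 194 and 107 CPM in the second (-0.86, -1.42 to -0.34). Vcam1 was lower in both, with ratios of -0.60 (-0.73 to -0.48) and -0.18 (-0.33 to -0.04). Il15 stood at 57.2 and 46.9 CPM in the Cxcl9-led cells (-0.29, -0.93 to 0.35) and at 44.6 and 112 CPM in the Trf-led cells (1.33, 0.63 to 2.04). Kitl had 1430 and 1662 CPM in the Trf-led cells (0.22, 0.07 to 0.36) and 1166 and 1160 CPM in the Cxcl9-led cells.

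In the preOB-like cells, Cxcl12 was 2.71-fold lower with teriparatide (-1.44, -1.54 to -1.34) and Vcam1 1.63-fold lower (-0.70, -1.11 to -0.30). Of the 4 factors with at least 50 UMIs in these cells, 2 were lower past 1.5-fold and 0 higher, against 15.9% and 6.85% of 4351 genes. Cxcl12 was lower in both sexes, at -1.31 (-1.44 to -1.18) in male and -1.21 (-1.43 to -1.01) in female cells. The female ratio rested on 22 vehicle and only 6 teriparatide cells. The 5 cells with the most Cxcl12 held 56.3% of its UMIs with vehicle and 58.9% with teriparatide. Kitl and Angpt1 had ratios of 0.22 (-0.12 to 0.57) and 0.47 (-0.26 to 1.22). Il7 (28 and 8 UMIs) and Il15 (8 and 3 UMIs) fell short of 50 UMIs and were not counted. Their ratios were -1.85 (-3.19 to -0.68) for Il7 and -1.46 (-4.01 to 0.60) for Il15. The lower values of Cxcl12 and Vcam1 turned when single cells were assigned by their own marker scores in place of clusters, to 0.72 for Cxcl12 and 1.37 for Vcam1. The ratios of Kitl and Angpt1 moved to 2.37 and 2.17, and that of Il7 stayed below 0, at -1.63. By those scores, 17 vehicle and 4 teriparatide cells of the preOB-like cluster scored highest for the MALP markers, and these held 73.3% and 43.7% of its Cxcl12 UMIs. Cxcl12 in those cells stood at 13000 CPM with vehicle and 12657 CPM with teriparatide. The 23 and 27 cells that scored highest for the preOB markers had 447 and 791 CPM of Cxcl12, 24.1 and 57.5 CPM of Vcam1 and 20.6 and 98.3 CPM of Kitl. These cells held 7 and 24 UMIs of Vcam1, 6 and 41 of Kitl, 1 and 14 of Angpt1 and 6 and 3 of Il7. The ratios by marker scores thus rest on few UMIs for these 4 genes, and no interval was taken. A further 12 and 14 cells scored highest for mural markers, with 3348 and 1577 CPM of Cxcl12, and Rgs5 and Acta2 were among the leading genes of the cluster. The call of lower Cxcl12 and Vcam1 in preOB-like cells therefore does not hold across both ways of assigning cells.

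Most captured molecules of the factors lay in MALP-like cells. With vehicle these cells held 86.3% of the Cxcl12 UMIs of all kept cells, 90.7% of Kitl, 89.8% of Il7, 85.9% of Angpt1, 89.7% of Vcam1 and 77.1% (68.0 to 84.6) of Il15. With teriparatide they held 89.6% of Cxcl12, 84.1% of Kitl, 89.0% of Il7, 74.5% of Angpt1, 72.8% of Vcam1 and 41.2% (34.0 to 48.6) of Il15. The lower shares of Vcam1 and Il15 stood beside more blood cells in that library, and blood cells held UMIs of both genes. Those of Angpt1 and Kitl were lower too, while preOB-like cells held 9.17% and 8.60% of the UMIs, against 5.35% and 5.55% with vehicle. The cause of the lower shares was not tested. The sort, the dissociation and the number of blood cells that passed it can set these shares.

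**Figure D4:**
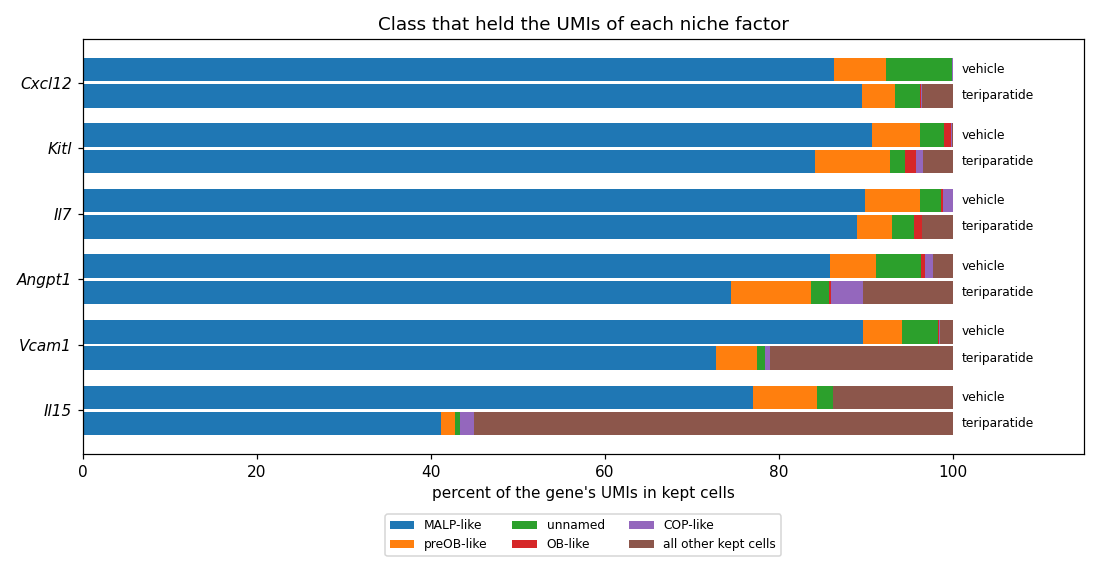
Share of the UMIs of each niche factor held by each cell class, in percent of the UMIs in kept cells, with the vehicle library above the teriparatide library for each gene. The MALP-like share lay between 72.8% and 90.7% for every gene and library except Il15, which had 77.1% with vehicle and 41.2% with teriparatide.

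Some blood cells also held Vcam1 and Il15. A small cluster led by C1qa, C1qb and C1qc, complement genes of macrophages, had 9 vehicle and 15 teriparatide cells with medians of 601 and 1088 UMIs. It carried Vcam1 at 4465 CPM (3034 to 6338) and 5420 CPM (4501 to 6471), above the MALP-like cells, in 7 and 13 of its cells. A cluster led by Elane held Vcam1 at 38.3 CPM in 5 of 8 vehicle cells. With teriparatide that cluster held it at 56.0 CPM, on 100 UMIs in 18 of 54 cells. Il15 was found in 16.2% of 148 monocyte-like and 22.3% of 148 neutrophil-like teriparatide cells, at 13.6 and 20.7 CPM, against 0 of 166 erythroid-like cells. Clusters led by Elane and by Cxcl2 held Il15 too, in 17 of 54 cells (14.0 CPM) and 6 of 42 cells (29.7 CPM) with teriparatide. With vehicle Il15 was found in 5 of 23 monocyte-like and 0 of 14 neutrophil-like cells. Each of the clusters led by Elane and by Cxcl2 had it in 2 of 8 vehicle cells. Il15 with vehicle stood at 33.7 CPM (15.4 to 64.1, 9 UMIs) in monocyte-like and 95.8 CPM (19.7 to 280, 3 UMIs) in Cxcl2-led cells. Both intervals overlapped that of the MALP-like cells (40.9 to 63.5 CPM). The Elane-led vehicle cells had 10.9 CPM (1.32 to 39.5, 2 UMIs), below it. No blood cluster of either library held more than 15 UMIs of Cxcl12 or 2 of Kitl, and Il7 had 0 UMIs in each of them. Angpt1 had 11 UMIs in 2 of 23 monocyte-like vehicle cells (41.2 CPM, 20.6 to 73.8) and 8 in the monocyte-like teriparatide cells. Further, 4 cells of the teriparatide library with a UMI of Ptprc had been left out of the mesenchymal classes, and these held 999 Cxcl12 UMIs, or 3.45% of the total, and 57 of Kitl.

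Per 1000 mesenchymal cells the captured amount of each factor was lower with teriparatide, and so was the share of MALP-like cells. MALP-like cells were 29.5% (25.2 to 34.1) of the mesenchymal cells with vehicle and 13.4% (10.8 to 16.3) with teriparatide. Within male cells the shares were 28.3% and 14.0%, and within female cells 40.7% and 14.0%. The libraries held 114200 and 46083 UMIs of Cxcl12 per 1000 mesenchymal cells, 5481 and 2871 of Kitl, 1045 and 320.1 of Il7, 1205 and 658 of Angpt1, 6983 and 2441 of Vcam1 and 222 and 139 of Il15. A share also falls when another class grows, and COP-like cells were 15.6% of the mesenchymal cells with vehicle and 43.7% with teriparatide. Fewer MALP-like cells in the tissue, more cells of other classes, and differences in dissociation and sorting cannot be told apart. A cluster of 55 vehicle and 56 teriparatide cells with a median of 1999 UMIs stayed unnamed, although it had 19586 and 6132 CPM of Cxcl12, and 29 and 6 of its cells scored highest for the MALP markers.

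Of 36 other soluble and surface niche genes, 21 had at least 50 UMIs in MALP-like cells, of which 6 were lower with teriparatide by the same rule, 3 were higher and 12 were within it, against 8.03% lower and 6.97% higher over all 6890 genes. Their median ratio was -0.34, against -0.08 over all genes. The lower genes were the chemokines Cxcl1 (41.5 and 8.64 CPM; -2.26, -3.39 to -1.30), Ccl2 (48.9 and 15.6 CPM; -1.65, -2.48 to -0.90), Ccl19 (42.2 and 22.5 CPM; -0.91, -1.62 to -0.24) and Cxcl14 (1432 and 909 CPM; -0.66, -0.76 to -0.55), with the growth factors Ptn (85.5 and 34.6 CPM; -1.31, -1.85 to -0.79) and Mdk (492 and 322 CPM; -0.61, -0.79 to -0.43). The higher genes were Fn1, which encodes fibronectin (117 and 381 CPM; 1.71, 1.46 to 1.96), Wnt5a (14.1 and 28.5 CPM; 1.02, 0.21 to 1.86) and Bmp4 (282 and 482 CPM; 0.78, 0.60 to 0.96). With the UMIs of both libraries summed, the most abundant of the list were Esm1 (1811 and 1469 CPM), Cxcl14, Spp1 (621 and 540.3 CPM), Grem1 (601 and 455 CPM), Mdk and Csf1. Csf1, the growth factor of macrophages, had 341 and 432 CPM, a ratio of 0.34 (0.17 to 0.52). In the preOB-like, OB-like and COP-like cells together, Fn1 (2100 and 3471 CPM) and Spp1 (8313 and 12610 CPM) were higher than in MALP-like cells. So were Ptn (190 and 47.0 CPM), Cxcl1 (42.8 and 48.0 CPM) and, with vehicle, Wnt5a (23.5 CPM). Whether RNA of those classes added to the values in MALP-like cells was not tested. Thpo, Csf2 and Csf3 had 0 UMIs in MALP-like cells of both libraries, and these 3 and Bmp4 were named after their values were seen. The ratios of Cxcl14 and Mdk were smaller in size than that of Il7, whose call was lost with median ratio scaling. The calls in this list, and in the transcription factors and proteases below, were not repeated with that scaling or within a sex.

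Of 15 transcription factors linked to reticular stroma or to the signals that reach it, 13 had at least 50 UMIs in MALP-like cells, of which 1 was lower, 2 were higher and 10 were within the rule, against the same 8.03% and 6.97% over all genes, with a median ratio of 0.14. Cebpb, a factor of inflammatory and adipogenic programmes, had 675 CPM with vehicle and 198 CPM with teriparatide (-1.77, -1.98 to -1.56). Runx2, a driver of the osteoblast lineage, had 179.6 and 283 CPM (0.65, 0.42 to 0.89) and Ebf2 25.7 and 41.5 CPM (0.69, 0.07 to 1.33). Foxc1, needed for reticular cells to form, stood at 616 and 609 CPM (-0.02, -0.16 to 0.12). Ebf1 had 827 and 915 CPM, Runx1 697 and 816 CPM, Ebf3 335 and 434 CPM and Prrx1 331 and 329 CPM.

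Except for Itgb1 and, with teriparatide, Kit, the receptors that were found were highest outside the MALP-like cells. Cxcr4 was highest in the B-like cells, at 577 CPM with vehicle and 579 CPM with teriparatide, as were Il7r (72.1 and 228 CPM) and Il2rg (159 and 105 CPM), which pair as the receptor of Il7. With vehicle there were 11 B-like cells, and counting error did not set the order of Cxcr4 or Il7r. Cxcr4 (412 to 785 CPM) and Il7r (5 UMIs, 23.4 to 168 CPM) overlapped the monocyte-like intervals (336 to 493 and 26.0 to 83.4 CPM). Itga4 (337 and 225 CPM, with intervals that overlapped those in B-like cells) and Itgb7 (154 and 242 CPM) were highest in the monocyte-like cells. Il2rb was highest there with teriparatide (19.7 CPM, 42 UMIs), while with vehicle it had 1 UMI each in monocyte-like and hypertrophic-like cells, which gives no order. Ackr3, a second receptor that takes up Cxcl12, was highest in the hypertrophic-like cells (482 and 257 CPM). Il15ra, which presents Il15, was highest in the COP-like cells (21.5 and 31.8 CPM). Kit had 26.9 and 21.6 CPM in MALP-like cells, the highest class with teriparatide. With vehicle Kit was higher in the monocyte-like cells, where its 20 UMIs lay in 3 of 23 cells. The Elane-led cells (43.7 CPM, 8 UMIs) and the unnamed cluster (32.3 CPM, 6 UMIs) could not be ordered against the MALP-like cells. Their intervals (18.9 to 86.1 and 11.9 to 70.4 CPM) overlapped that of the MALP-like cells (19.5 to 36.1 CPM). Itgb1 was highest in the MALP-like cells of both libraries, at 786 and 954 CPM. Tek had 0 UMIs in every kept cell, and Tie1 at most 5.47 CPM, in the Elane-led cells. Both are receptors of endothelial cells, against which the sort for CD31- cells was set. Of 5 proteases that cleave or shed such factors, which were named after their values were seen, 3 had at least 50 UMIs in MALP-like cells. Mmp14 stood at 251 and 377 CPM (0.59, 0.39 to 0.78), barely past the rule at 1.501-fold, while 6.97% of all 6890 genes were higher by it. The preOB-like cells had more Mmp14, at 581 and 654 CPM. Adam10 (111 and 84 UMIs) and Adam17 (59 and 60 UMIs) were within the rule in MALP-like cells. Dpp4, which inactivates Cxcl12, had 1 and 2 UMIs and Mmp9 8 and 3 UMIs in these cells.

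The genes with the most similar pattern over the classes were sought by Pearson correlation of log2(CPM + 10) over 16 sums, of 8 classes in each library, among 9465 genes. For Cxcl12 they were Wdr86, Rarres2 and Ptgfr (r of 0.994, 0.994 and 0.993), for Kitl Dpep1, Ebf3 and Adgrf5 (0.994, 0.994 and 0.993) and for Il7 Igfbp3, Esm1 and Marc1 (0.992, 0.992 and 0.991). Lpl, named next, was itself a marker used to name the MALP-like cells. For Angpt1 they were Fgd6, Adgrl2 and 1500009L16Rik (0.983, 0.978 and 0.977) and for Vcam1 Vegfc, Lpl and Ms4a4d (0.985, 0.978 and 0.973). Il15 had lower values, led by Rnf125, Ifi47 and Nmi (0.888, 0.883 and 0.882). Between the factors, r ran from 0.65 (Cxcl12 and Il15) to 0.99 (Cxcl12 and Kitl). Only classes with at least 10 cells in each library were used, which left out the C1qa-led, Elane-led, Cxcl2-led and hypertrophic-like cells. Vcam1 was highest in the C1qa-led cells, so its r values describe the other classes only. The sums share libraries, and the values are given as a description.

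Markers of other cell types were also measured in the MALP-like cells. The 4 endothelial markers summed to 7.94 CPM with vehicle and 4.32 CPM with teriparatide, the 4 monocyte markers to 7.33 and 7.78 CPM with Csf1r and Ccr2 at 0, and the 4 B lineage markers to 1.22 and 0.864 CPM. The sums of neutrophil (66.6 and 206 CPM), erythroid (142 and 240.3 CPM) and mural markers (109 and 233 CPM) were higher with teriparatide. So were those of hypertrophic chondrocyte (2539 and 5429 CPM, with Ihh and Panx3 at 0), COP (28.7 and 119 CPM, with Sox6 at 0) and preOB markers (188 and 305 CPM, with Tnn at 0). The sums of OB markers (1973 and 1764 CPM) and of granulocyte-monocyte progenitor markers (23.2 and 19.0 CPM) were lower. Their part in the ratios above was not tested.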

How the data were processed

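Tissue of Gli1-CreERT2; Ai9 mice was profiled by single-cell RNA sequencing on the 10x Genomics platform (3′ kit), with 1 vehicle and 1 teriparatide library. The authors aligned reads to mm10 and counted UMIs with Cell Ranger (version 2.1.0 in the labels and methods, 3.1.0 in the file headers), and the deposited values are raw counts per gene and barcode. The totals were 10567335 and 26270041 UMIs. Cells with 200 to 6000 genes and at most 10% mitochondrial UMIs were kept, integrated and clustered in Seurat 5.3.0 (20 principal components, resolution 0.6). Clusters of blood cells and other cells with a UMI of Ptprc were set aside and the rest clustered again. A cluster took the name of the class with the largest share of its markers met, of at least 3, each found in 10% or more of cells and above the mean of the other clusters, and a shallow cluster with no marker among its 10 leading genes stayed unnamed. The genes described, and all listed genes, were kept out of the variable genes. UMIs were summed by class and library as CPM, with exact Poisson intervals, shares had Clopper-Pearson intervals, and ratios of 2 sums had conditional binomial intervals. The last were run on simulated Poisson counts without spread between cells, which cannot show how they fare with such spread. All these intervals cover counting error only. Scrublet marked only 1 cell as a doublet, so leaving out its calls was hardly a check, and whether it missed doublets was not tested. Positions are from GENCODE vM21. Other genes were named by rule: of the niche and regulator lists, up to 6 past 1.5-fold with an interval leaving out 0 and up to 6 of highest level, every receptor, and the 3 genes most like each factor. The genes and lists were chosen with earlier results of these data known.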

Additional observations from a re-analysis of the deposited data

Results flagged for a closer look

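In MALP-like cells the ratio of teriparatide to vehicle had opposite signs in male and female cells, with intervals that leave out 0, for Il7 (log2 ratio -0.99 in male and 0.89 in female cells) and for Kitl (0.22 in male and -0.51 in female cells). The difference between the sexes was not tested, since each condition had 1 library and the female cells of the teriparatide library numbered 7.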

How the results depend on the processing

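The 6 factors remained at least 10-fold higher in MALP-like cells in both libraries under 8 alternatives, except that 5 of 6 were so in the vehicle library with cells thinned to one depth. The ratios of teriparatide to vehicle in MALP-like cells moved as follows. For Cxcl12 the log2 ratio was -0.10 after scaling to the median ratio, -0.24 with a mitochondrial limit of 20%, -0.13 with a gate on single cells, -0.22 thinned, -0.12 in male cells, -0.68 in female cells and -0.24 as the mean over cells. For Kitl it was 0.12 with the gate, 0.18 thinned, 0.22 in male and -0.51 in female cells. For Il7 it was -0.99 in male cells and turned to 0.89 in female cells, and it was under 1.5-fold with median ratio scaling (-0.58), thinned (-0.56) and with the gate (-0.42). For Angpt1 it was 0.40 thinned and -1.39 in female cells, for Vcam1 -0.34 with the gate and -0.31 in female cells, and for Il15 1.23 thinned, -0.18 in male and 1.76 in female cells. With the gate, the ratios of Cxcl12 and Vcam1 in preOB-like cells turned to 0.72 and 1.37, and those of Kitl and Angpt1 moved to 2.37 and 2.17. The cause of these changes was not tested. Those of Vcam1, Kitl and Angpt1 rest on few UMIs, and no interval was taken. Leaving out the cells with the highest 6% of Scrublet scores, an alternative chosen after seeing the data, kept the 6 ratios in MALP-like cells within their intervals. No paired analysis was possible because each condition had 1 library. The female comparison rests on 7 cells, and counts of Il15 and Il7 limit their precision.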
